A study of Mus musculus domesticus with 12 samples.

Results

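Dis3 and Exosc10 are catalytic exoribonucleases of the RNA exosome, and Dis3l and Dis3l2 are paralogs of Dis3. These 4 genes were chosen by name and found by gene identifier among the 55385 genes of the tables, and all 4 passed the filter on low counts that left 17650 genes. Lineage-depleted fetal liver cells of C57BL/6J embryos at E14.5 were infected with a retrovirus that carried a short hairpin RNA (shRNA) against firefly luciferase (shLuc, the control), Dis3 (shDis3) or Exosc10 (shExosc10), and were kept for 2 days in erythroid expansion medium. All 3 groups of 4 libraries share the infection, the culture and the sort for GFP-positive cells without Ter119 and with intermediate or positive CD71 that takes both progenitors and proerythroblasts. Sources used here give neither the hairpin sequences nor the number of hairpins per gene. They also leave out whether replicates came from separate cultures, so the p-values cover no more than the spread of these libraries, which may be technical.

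The exosome is a barrel of inert ring subunits through which RNA is threaded and shortened from its 3′ end, and the catalytic work is done by the nucleases attached to it. Dis3 is a processive exonuclease at the bottom of the barrel that can also cut RNA internally, and Exosc10, the relative of yeast Rrp6, is a distributive exonuclease at its top that acts mainly in the nucleus and nucleolus. Dis3l takes the place of Dis3 on the cytoplasmic exosome, while Dis3l2 works without the exosome on RNAs that carry added uridines. In erythroid precursors the complex is known for holding back maturation.

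The 4 genes lie on different chromosomes of GRCm38, and all are protein-coding. Dis3 (ENSMUSG00000033166.11) spans bases 99075206 to 99099770 of chromosome 14 on the minus strand, and Exosc10 (ENSMUSG00000017264.16) bases 148558429 to 148582401 of chromosome 4 on the plus strand. Dis3l (ENSMUSG00000032396.17) spans bases 64306756 to 64341288 of chromosome 9 on the minus strand, and Dis3l2 (ENSMUSG00000053333.15) bases 86703808 to 87050095 of chromosome 1 on the plus strand. The annotation lists 6 transcripts of Dis3, 8 of Exosc10, 8 of Dis3l and 6 of Dis3l2, from 306 bases for a transcript of Exosc10 to 5241 bases for one of Dis3l2.

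How far the paralogs resemble each other in sequence bears on whether reads of one could be counted for another, so the longest identical stretch was read from the longest annotated coding sequence of each gene. Dis3 and Dis3l2 shared a run of 20 bases, Dis3 and Dis3l one of 14, and Dis3l and Dis3l2 one of 13. Exosc10, which belongs to another nuclease family, shared at most 12 bases with any of them. The runs of Dis3 with each paralog are shown with 20 bases on either side, 5′ to 3′ in the sense of the transcript, with the shared run in capitals, from the GENCODE M21 transcripts.
Dis3 coding bases 2235 to 2294: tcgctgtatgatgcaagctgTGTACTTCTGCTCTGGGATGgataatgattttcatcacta
Dis3l2 coding bases 2034 to 2093: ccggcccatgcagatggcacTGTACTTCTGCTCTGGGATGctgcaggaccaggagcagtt
Dis3 coding bases 1211 to 1264: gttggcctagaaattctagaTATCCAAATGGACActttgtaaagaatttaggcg
Dis3l coding bases 1193 to 1246: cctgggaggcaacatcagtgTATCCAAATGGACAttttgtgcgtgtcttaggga
All 48 expected counts of the 4 genes (4 genes in 12 libraries) were whole numbers within 1e-09, whereas 4.55% of the values over all genes were not.

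Library totals ran from 14936178 to 32397192 counts, and the 4 genes held 289 to 5178 counts per library, so that counting error was at most 5.88% of a value. The erythroid markers Gata1, Klf1, Tal1, Epor, Tfrc, Kit, Alas2, Slc4a1 and 3 globins were above 0 in every library and summed to 678.0 to 3375 TPM. The 7 granulocyte markers summed to 794.8 to 3896 TPM and the 8 megakaryocyte markers to 28.7 to 303.0 TPM, so RNA of genes that mark other lineages was measured in the sorted cells. Macrophage markers summed to at most 106.5 TPM with C1qa, C1qb, C1qc and Marco at 0 in some libraries, and hepatocyte markers to at most 21.4 TPM with Alb, Afp, Ttr and Serpina1a at 0 in some. Across genes, which are not independent replicates, 8 of the 12 libraries were closest to a library of another group. The closest pairs of all were shLuc replicate 4 with shDis3 replicate 3 (Pearson r = 0.986) and shDis3 replicate 4 with shExosc10 replicate 1 (r = 0.981). The best match of these 4 libraries in their own group had r = 0.946, 0.972, 0.968 and 0.942. The division is not sharp, since shDis3 replicate 1, outside these 4, was closest to shDis3 replicate 3 (r = 0.972). Results that rest on these 4 libraries are given with and without them.

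In control cells Dis3 and Exosc10 stood at similar levels, and both paralogs were lower. Per transcript length, Dis3 measured 24.76, 37.27, 27.42 and 58.43 TPM in shLuc replicates 1 to 4, with a mean of 36.97 ± 15.3 (SD, n = 4). Exosc10 measured 17.62, 35.10, 25.75 and 55.40 TPM, with a mean of 33.5 ± 16.3. Dis3 lay above Exosc10 within each of the 4 libraries, by 1.05 to 1.41 times, although their means differ by less than the spread between libraries. Dis3l measured 6.85 ± 4.23 TPM (3.75 to 13.00) and Dis3l2 6.62 ± 2.58 TPM (4.15 to 10.22), and the order of the paralogs changed from library to library, with a Dis3l to Dis3l2 ratio of 0.774 to 1.27. In the order of mean TPM among the exosome genes and the Dis3 paralogs, Exosc8 (61.7 ± 12.9) came first. Dis3 and Exosc10 took places 7 and 8 between Exosc2 (38.3 ± 17.7) and Exosc5 (28.4 ± 11.3). Dis3l and Dis3l2 followed Exosc4 (10.1 ± 4.41). The ranges of neighbours in this order overlapped throughout. Exosc6, a ring subunit, is listed at 0 in all 12 libraries, and whether its RNA was absent or not counted was not tested.

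Dis3 RNA was lower in every library with the Dis3 shRNA. Scaled to the library size with TMM factors, Dis3 measured 125.5, 125.7, 113.4 and 160.5 CPM (the read count relative to library size) in shLuc replicates 1 to 4 and 32.7, 24.7, 43.2 and 52.4 CPM in shDis3 replicates 1 to 4. The groups did not overlap, and the libraries with the shRNA kept 24.9%, 18.8%, 32.9% and 39.9% of the shLuc mean (29.1% ± 9.19, SD, n = 4). The log2 fold change was -1.78 (SE 0.24, 95% interval -2.30 to -1.26), a 3.43-fold lower level. It had the smallest p-value of all genes, and the adjusted p of 0.0581 by edgeR's quasi-likelihood test missed the threshold of 0.05. In bulk RNA, fewer cells of a type that holds much Dis3 and less Dis3 RNA per cell cannot be told apart.

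No gene was called in shDis3 against shLuc, higher or lower (0% of 17650) by edgeR, and 719 genes had an unadjusted p under 0.05, 2.07% of all genes being lower and 2.01% higher. DESeq2, given all 55385 genes without the filter on low counts, called 28 genes, Dis3 among them (adjusted p = 2.33e-11). Groups that do not overlap, as for Dis3, were found in 0.793% of genes in the lower direction. With single libraries left out, edgeR's adjusted p of Dis3 ran from 0.0201 to 0.717 and missed the threshold in 9 of 12 fits, the highest being that without shDis3 replicate 1. It also missed with the 2 groups alone in the fit (adjusted p = 0.1004) and with the replicate number as a block (adjusted p = 0.215). Dis3 passed edgeR's threshold when shLuc replicate 4 was left out (adjusted p = 0.0201). It also passed with replicate 4 of shDis3 left out (adjusted p = 0.0359) and with replicate 1 of shExosc10 left out (adjusted p = 0.0329).

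Dis3 was lower both inside and outside the libraries that stood apart. Between shDis3 replicate 3 and shLuc replicate 4, which resemble each other across all genes, Dis3 differed by -1.89 on the log2 scale (43.2 against 160.5 CPM). Between shDis3 replicate 4 and shExosc10 replicate 1 the difference was -1.91 (52.4 against 196.2 CPM). Among the other 8 libraries the mean was 28.7 CPM in shDis3 (replicates 1 and 2 only) and 121.5 in shLuc (replicates 1 to 3), a log2 difference of -2.08. With these 3 sets of libraries (the 2 pairs and the other 8) as a factor in the edgeR fit the log2 fold change was -1.997 (SE 0.14, adjusted p = 1.33e-06). The sets were drawn from the same expression data, so this adjusted p is not independent of how they were chosen.

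Exosc10 fell in the cells with its own shRNA. It measured 85.4, 92.4, 101.9 and 113.1 CPM in shLuc replicates 1 to 4 and 30.8, 25.8, 18.9 and 30.2 CPM in shExosc10. The groups were apart in every library, and 31.3%, 26.3%, 19.2% and 30.8% of the shLuc mean remained (26.9% ± 5.598, SD, n = 4). The log2 fold change of -1.89 (SE 0.21, 95% interval -2.35 to -1.44, adjusted p = 0.00502 by edgeR) is a 3.72-fold lower level. Of all genes, 1.46% were lower without overlap of the groups. Exosc10 was the 1 gene called lower among 17650 (0.00567%), and 0% were called higher, with 371 genes at an unadjusted p under 0.05 (0.912% of genes higher and 1.19% lower) and 6 called by DESeq2. The call was lost without shExosc10 replicate 2 or 3 (adjusted p = 0.0631 and 0.0540). Without the 4 libraries that stood apart, the means were 24.98 CPM in shExosc10 and 93.2 in shLuc, a log2 difference of -1.90. The remaining levels of the 2 targets overlapped, with 18.8% to 39.9% for Dis3 and 19.2% to 31.3% for Exosc10, and their difference was not tested.

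**Figure D1:**
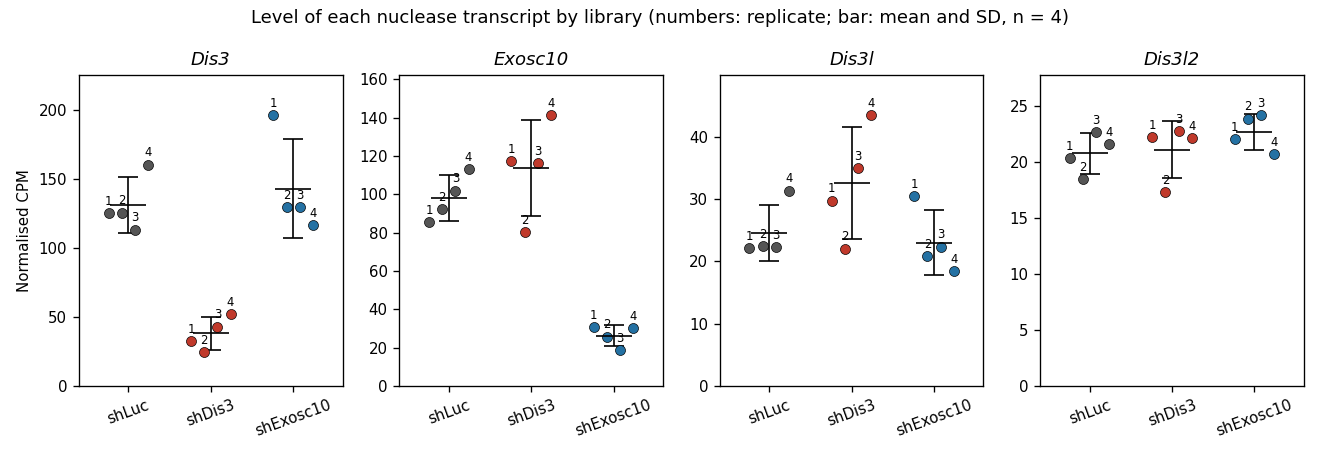
Normalised CPM of Dis3, Exosc10, Dis3l and Dis3l2 on linear axes from 0, with 1 point per library labelled by its replicate number and a bar for the mean and SD of the 4 libraries in each shRNA group. Dis3 in shDis3 (24.7 to 52.4 CPM) and Exosc10 in shExosc10 (18.9 to 30.8 CPM) lie below all other libraries, while Dis3l and Dis3l2 overlap between groups.

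Neither target was called when the other was knocked down. Exosc10 measured 117.3, 80.1, 116.3 and 141.1 CPM in shDis3, overlapping shLuc, with a log2 fold change of 0.21 (SE 0.20, 95% interval -0.22 to 0.65). Dis3 measured 196.2, 129.95, 129.7 and 116.6 CPM in shExosc10, with a log2 fold change of 0.12 (SE 0.24, 95% interval -0.38 to 0.63). Only shExosc10 replicate 1 lay above all shLuc libraries for Dis3, and without that library the fold change was -0.05 on the log2 scale. The intervals leave room for a rise of up to 0.65 and 0.63 on the log2 scale, so a modest change of either was not detectable here.

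Set against each other, the libraries of shDis3 and shExosc10 differed in both targets. Dis3 was lower in shDis3 than in shExosc10 by a log2 fold change of -1.90 (SE 0.24, adjusted p = 0.0138 by edgeR), and Exosc10 was higher by 2.11 (SE 0.21, adjusted p = 0.00144). They were the only genes that edgeR called in this comparison, 1 lower (0.00567% of genes) and 1 higher (0.00567%). Groups without overlap made up 1.91% of genes in the higher and 1.8% in the lower direction, and 2.79% were lower at an unadjusted p under 0.05. DESeq2 called 49 genes. The call of Dis3 was lost when replicate 1 or 3 of shDis3 was left out (adjusted p = 0.175 and 0.0714), when replicate 3 of shExosc10 was left out (adjusted p = 0.0533) and with only the 8 libraries of this comparison in the fit (adjusted p = 0.0800). It was also lost with the replicate number as a block (adjusted p = 0.0591). In these fits the log2 fold change was -1.96 to -1.83. In limma on log2(TPM + 1) neither gene passed, with an adjusted p of 0.9998 for Dis3 and 0.180 for Exosc10.

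The ratio of Dis3 to Exosc10 within a library does not depend on the library's scale, and it sorted the libraries by shRNA. In TPM, the ratio was 1.41, 1.06, 1.06 and 1.05 in shLuc replicates 1 to 4. It was 0.253, 0.331, 0.432 and 0.422 in shDis3, and 5.35, 4.66, 5.47 and 2.96 in shExosc10. No 2 groups overlapped. The log2 ratio averaged 0.19 ± 0.20 (SD, n = 4) in the controls, -1.51 ± 0.36 in shDis3 and 2.16 ± 0.41 in shExosc10. Each of the 3 differences had p = 0.0286 in an exact two-sided permutation test, the smallest value that 4 against 4 libraries allow, and an adjusted p of 0.0429 over 6 tests. In every comparison the ratio holds a target of the shRNA, so these tests repeat the knockdowns and are not separate evidence.

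**Figure D2:**
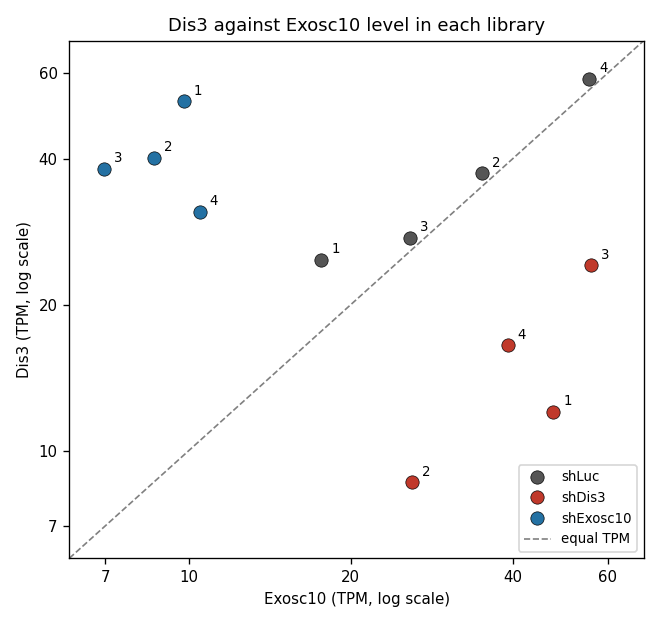
Dis3 against Exosc10 level in each of the 12 libraries, in TPM on log axes, coloured by shRNA group and labelled by replicate, with a dashed line of equal TPM. The shLuc libraries lie close to the line over a wide range of levels (ratio 1.05 to 1.41), the shDis3 libraries below it (0.253 to 0.432) and the shExosc10 libraries above it (2.96 to 5.47).

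On the TPM scale the knockdown of Dis3 looked shallower than in CPM. Dis3 measured 12.02, 8.60, 24.11 and 16.49 TPM in shDis3 replicates 1 to 4, which is 41.4% of the shLuc mean, and its highest library lay just under the lowest shLuc library (24.11 against 24.76 TPM). Exosc10 measured 9.80, 8.61, 6.95 and 10.47 TPM in shExosc10, 26.8% of the shLuc mean and nearly the same share as in CPM. In limma on log2(TPM + 1), the log2 fold change of Dis3 in shDis3 was -1.23 and that of Exosc10 in shExosc10 -1.69, on the log2(value + pseudocount) scale, and neither passed (adjusted p = 0.9993 and 0.9998).

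The deposited tables also give for each gene the mean length of its transcripts, weighted by their estimated abundance, which enters the TPM. For Dis3 this was 2760, 3265, 2793 and 3445 bases in shLuc and 2915, 2535, 2321 and 2362 bases in shDis3, with means of 3066 ± 342 and 2533 ± 271. In shExosc10 it was 3050, 2630, 3030 and 3324 bases (3008 ± 286). In 3 of the 4 shDis3 libraries the length was below that of all other groups' libraries, and in replicate 1 it was not. All of these means are below the 5150 bases of the one annotated protein-coding transcript of Dis3, and the other annotated forms have 356, 672, 2971, 3590 and 3726 bases. The difference between shDis3 and shLuc had p = 0.0857 by an exact permutation test (adjusted p = 0.171 over 12 tests). Exosc10 showed a smaller shift in its own knockdown, with 2530 ± 82.2 bases in shExosc10 against 2639 ± 35.2 in shLuc (exact permutation p = 0.0571, adjusted p = 0.171). These lengths were tested after their values had been seen, and none of the 12 tests passed after adjustment. Which transcripts changed was not tested.

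Dis3l, the cytoplasmic partner of the exosome, was not called in any comparison. It measured 22.1, 22.5, 22.3 and 31.3 CPM in shLuc, 29.7, 22.05, 34.9 and 43.4 CPM in shDis3, and 30.5, 20.8, 22.4 and 18.4 CPM in shExosc10. The log2 fold change was 0.41 in shDis3 against shLuc (SE 0.23, 95% interval -0.08 to 0.90) and -0.09 in shExosc10 against shLuc (SE 0.23, interval -0.58 to 0.40). Between the knockdowns it was 0.50 (SE 0.23, unadjusted p = 0.0467, adjusted p = 0.824 by edgeR), where 3.18% of all genes were higher at an unadjusted p under 0.05.

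The level of Dis3l divided the libraries that stood apart from the others. The 4 libraries shLuc replicate 4, shDis3 replicates 3 and 4 and shExosc10 replicate 1 held 30.5 to 43.4 CPM, and the other 8 libraries 18.4 to 29.7 CPM, with no overlap. The gap was narrow (29.7 against 30.5 CPM), and 4.56% of all genes likewise lay higher in these 4 libraries without overlap. In those 8 libraries Dis3l averaged 22.3 CPM with the control shRNA, 25.9 CPM in shDis3 (replicates 1 and 2 only) and 20.5 CPM in shExosc10. The same 4 libraries held more RNA of the 6 mast cell and basophil markers, with a summed level of 47.4 to 113.8 TPM against 3.67 to 17.1 TPM, and with Fcer1a, Gzmb and Tpsb2 at 0 in some libraries. The 4 lymphoid markers summed to 10.6 to 23.8 TPM against 3.42 to 11.3 TPM, with Cd3e, Cd79a and Ighm at 0 in some. The 8 megakaryocyte markers, none of them at 0, summed to 216.0 to 303.0 TPM in the 4 libraries and 28.7 to 276.0 TPM in the 8, and the 11 erythroid markers to 1026 to 1539 TPM (median 1227) and 678.0 to 3375 TPM (median 2682). Granulocyte markers summed to medians of 1866 TPM in the 4 libraries and 1381 TPM in the 8, macrophage markers to 84.8 and 59.6 TPM, and hepatocyte markers to 9.25 and 14.45 TPM, all with overlapping ranges. Their part in the level of Dis3l was not tested.

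Dis3l2, the nuclease for uridylated RNA, varied least of the 4. It measured 20.3, 18.4, 22.6 and 21.6 CPM in shLuc, 22.2, 17.3, 22.7 and 22.1 CPM in shDis3, and 21.98, 23.8, 24.1 and 20.6 CPM in shExosc10. All groups overlapped. The log2 fold change was 0.02 in shDis3 (SE 0.16, 95% interval -0.32 to 0.37) and 0.13 in shExosc10 (SE 0.16, interval -0.22 to 0.47). A rise of more than 0.47 on the log2 scale in either knockdown lies outside these intervals.

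**Figure D3:**
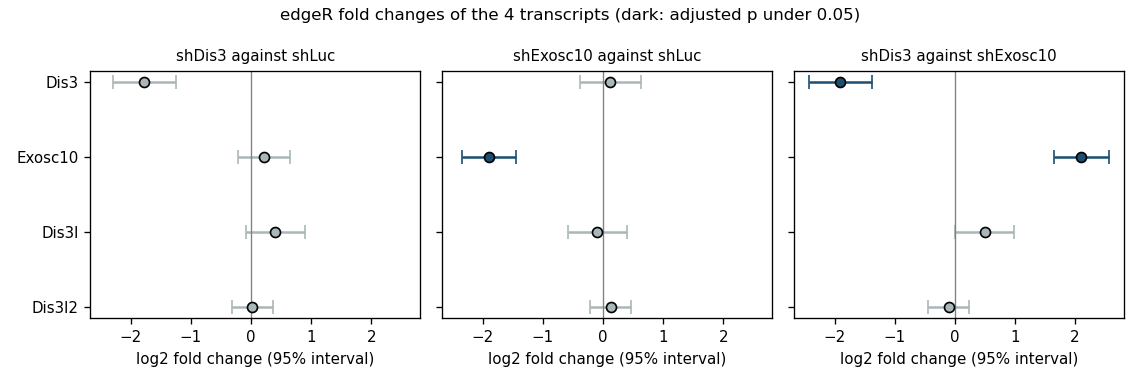
Log2 fold changes of the 4 transcripts by edgeR in each of the 3 comparisons, as points with 95% intervals, dark where the adjusted p was under 0.05. The targets lie between -1.90 and -1.78 in their own knockdown, and the intervals of Dis3l2 include 0 in all 3 comparisons.

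Dis3 made up less of the summed RNA of the Dis3 family in shDis3 than in the other groups. Dis3 made up 75.8%, 74.7%, 73.0% and 71.6% of the summed TPM of Dis3, Dis3l and Dis3l2 in shLuc and 40.3%, 43.8%, 51.6% and 52.3% in shDis3. In shExosc10 its share was 76.5%, 76.4%, 71.0% and 66.3%. The share of Dis3l was 12.9% ± 2.05 in shLuc and 28.9% ± 2.31 in shDis3, and that of Dis3l2 was 13.3% ± 1.28 and 24.1% ± 5.29 (SD, n = 4). The shares were not tested, and those of Dis3l and Dis3l2 go up when Dis3 alone goes down. In TPM, Dis3l measured 6.85 ± 4.23 in shLuc and 9.16 ± 2.91 in shDis3, with overlapping ranges. Dis3l2 measured 6.62 ± 2.58 and 7.44 ± 2.20 TPM, also overlapping. The summed TPM of the family was 50.4 ± 22.03 in shLuc and 31.9 ± 11.2 in shDis3, and in shExosc10 it was 55.3 ± 9.28. It was lower in shDis3 than in shExosc10 without overlap (exact permutation p = 0.0286, adjusted p = 0.0429), while shDis3 against shLuc gave p = 0.143 (adjusted p = 0.171). The calls depend on scale and libraries. In CPM in place of TPM the sum in shDis3 was lower than in shLuc by a difference of -84.7 CPM (exact permutation test, adjusted p = 0.0343). Dis3 alone averaged 131.3 CPM in shLuc and 38.3 CPM in shDis3, so tests of the sum in either unit largely repeat the knockdown. In TPM, the difference of the sum from shLuc was -18.5, and -8.13 without shLuc replicate 4. The difference from shExosc10 missed the threshold without shDis3 replicate 2 or any single shExosc10 library (exact permutation test, adjusted p = 0.0857). Without the 4 libraries the same test gave an adjusted p of 0.150, but so few libraries cannot pass the threshold whatever their values.

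**Figure D4:**
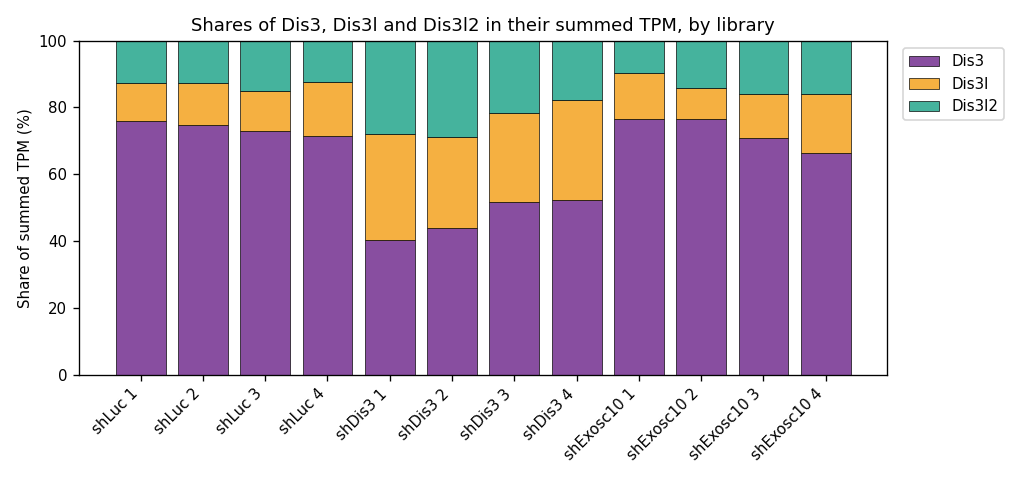
Shares of Dis3, Dis3l and Dis3l2 in their summed TPM, as stacked bars from 0 to 100% for each of the 12 libraries. Dis3 holds 66.3% to 76.5% in the 8 libraries of shLuc and shExosc10 and 40.3% to 52.3% in the 4 of shDis3.

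The genes beside the targets on the chromosome gave a local comparison. Pibf1, a centrosome protein gene, is read from the opposite strand and overlaps the start of Dis3 by 347 bases, 325 of them exonic in both. The strand setting of the counting is not given, so reads from these bases could have been counted for either gene. In shDis3 its level was 29.5 ± 12.3 CPM, against 32.5 ± 11.2 CPM for the controls, with a log2 fold change of -0.14 (SE 0.28). Bora, an activator of the mitotic kinase Plk1 that lies 665 bases beyond the other end of Dis3, measured 58.9 ± 14.2 and 59.3 ± 2.97 CPM (-0.01, SE 0.19). Mtor, the kinase of nutrient signalling, ends 745 bases before Exosc10 and measured 62.5 ± 5.89 CPM with the Exosc10 shRNA against 72.8 ± 16.8 CPM for the controls (log2 fold change -0.22, SE 0.23). None of these neighbours was called by edgeR. No annotated gene shares exonic bases with Exosc10, Dis3l or Dis3l2, although Dis3l2 holds 11 smaller genes and part of another within its span, of which the pseudogene Gm6136 had the most counts.

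The ring that carries Dis3 and Exosc10 showed no call in either knockdown. Of 9 ring subunits 8 were tested, and 0 were called in either direction by edgeR or DESeq2 and 0 had an unadjusted p under 0.05, with a median log2 fold change of -0.01 in shDis3 (all genes 0.02) and 0.18 in shExosc10 (all genes 0.02). The ring subunit Exosc4 had a log2 fold change of 0.38 in shDis3 (SE 0.27) and Exosc3, a cap subunit that binds RNA, of -0.26 (SE 0.21). In shExosc10, Exosc9 had 0.35 (SE 0.22) and Exosc8 0.22 (SE 0.22). Relative to the median TPM of these 8 subunits in the same library, Dis3 stood at 0.848, 0.722, 0.835 and 0.914 in shLuc and at 0.245, 0.246, 0.436 and 0.341 in shDis3. Exosc10 stood at 0.603, 0.680, 0.784 and 0.867 in shLuc and at 0.168, 0.201, 0.140 and 0.281 in shExosc10. On this scale too the knockdown libraries were apart from the controls.

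Genes listed as nuclear cofactors of the catalytic subunits were not called by edgeR or DESeq2, and 0 had an unadjusted p under 0.05. Of 17 tested, 4 had a positive and 13 a negative log2 fold change in shDis3 (median -0.05), and 9 and 8 in shExosc10 (median 0.08). In shDis3, Tent4a, a noncanonical poly(A) polymerase, had -0.41 (SE 0.32) and the cap-binding subunit Ncbp2 0.15 (SE 0.21). Mphosph6, which binds Exosc10 in ribosomal RNA processing, had 0.46 (SE 0.26) in shExosc10, and Nrde2, a partner of the helicase Mtrex, -0.35 (SE 0.24).

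The partners of Dis3l and Dis3l2 were likewise without a call by edgeR or DESeq2, again with 0 at an unadjusted p under 0.05. Among 5 partners of the cytoplasmic exosome the medians were -0.05 in shDis3 and 0.08 in shExosc10. The Ski helicase Skiv2l had log2 fold changes of -0.17 (SE 0.28) and -0.42 (SE 0.29), and Wdr61, a Ski complex subunit, 0.12 (SE 0.20) and 0.27 (SE 0.20). For 5 genes around uridylation the medians were -0.23 and -0.10. Lin28b, which binds let-7 precursors, had -0.26 (SE 0.20) and -0.17 (SE 0.20). The uridylyltransferase Tut7 had -0.25 (SE 0.18) in shDis3, and its relative Tut4 -0.10 (SE 0.18) in shExosc10.

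Among 18 other exoribonucleases 0 were called by edgeR or DESeq2 in either knockdown against shLuc, and 2 in shDis3 and 1 in shExosc10 were higher at an unadjusted p under 0.05 (2.01% and 0.912% of all genes), with medians of -0.02 in shDis3 and 0.08 in shExosc10. Xrn1, the cytoplasmic exonuclease that degrades decapped RNA from the 5′ end, stood at 44.9 ± 6.38 CPM in the controls (SD, n = 4), at 56.4 ± 4.05 CPM with the Dis3 shRNA and at 64.4 ± 2.19 CPM with the Exosc10 shRNA. It lay above all shLuc libraries in both knockdowns, which 0.907% of genes did in shDis3 and 1.02% in shExosc10, and these comparisons share their control libraries. The log2 fold changes were 0.33 (SE 0.15, unadjusted p = 0.0459) and 0.52 (SE 0.15, unadjusted p = 0.00374), which did not pass after adjustment (0.9998 and 0.999995 by edgeR). Aen, a nuclease induced by p53, had 0.40 (SE 0.16) in shDis3, and Isg20, an interferon-induced nuclease, -0.79 (SE 0.62) in shDis3 and 0.68 (SE 0.61) in shExosc10, neither passing the test. Between shDis3 and shExosc10, Isg20 had -1.48 (SE 0.62, unadjusted p = 0.0323, adjusted p = 0.792 by edgeR), and it was called lower in edgeR without the filter on low counts.

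**Figure D5:**
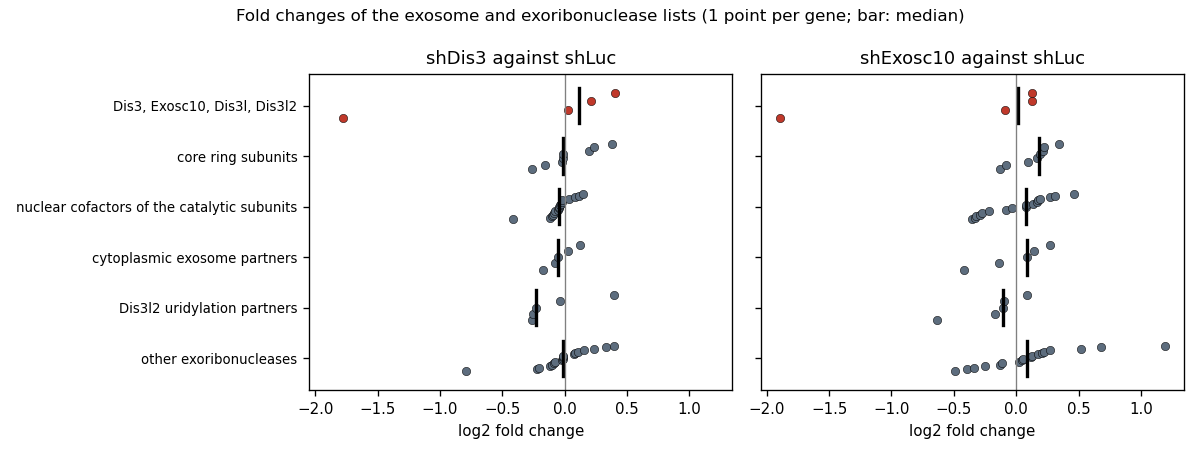
Log2 fold changes of the 4 nucleases and of 5 lists of related genes in shDis3 and in shExosc10 against shLuc, with 1 point per gene and a bar at each list's median. Apart from the target at -1.78 or -1.89, the points lie between -0.79 and 1.19, and the medians between -0.23 and 0.18.

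The genes whose pattern over the 12 libraries was most like that of each nuclease were found by the root mean square difference of log2 CPM after centring each gene, among 9466 other genes that averaged 5 CPM or more. The libraries share depth, groups and clusters, so these are descriptions. For Dis3, the nearest were Gm8113 (difference 0.50), 2410004B18Rik (0.52) and Phtf2 (0.54), against a median of 0.97 over all genes. Phtf2 measured 35.4, 19.9 and 35.3 CPM on average in shLuc, shDis3 and shExosc10. For Exosc10 they were Ppif, the mitochondrial cyclophilin (0.49), the cullin Cul7 (0.55) and the kinase Jak3 (0.55), against a median of 1.014, and Ppif measured 76.0, 83.0 and 38.1 CPM. Far closer matches existed for the paralogs. Dis3l was followed by Nop9, Sf3b3 and Gart, each at 0.10 (median 0.42), and Dis3l2 by the proteasome subunit Psmd11 (0.06), Golim4 (0.08) and Srbd1 (0.09), against a median of 0.32.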

How the data were processed

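Total RNA was sequenced from 12 libraries made with a stranded SMARTer Pico kit, per the labels' protocols. STAR 2.5.3a and RSEM 1.3.0 are named in the submitters' processing notes, as are mm10 and GRCm38, with no role stated. Which annotation release, strand setting and filters were used is not given in the sources used here. The deposited tables hold, per the file headers, an RSEM expected count per gene, its TPM and its transcript length in bases. GENCODE mouse release M21 (GRCm38) supplied gene names, transcripts and coordinates, and 55144 of 55385 identifiers matched it without their version.

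Expected counts were rounded and tested by quasi-likelihood in edgeR 4.0.16 under R 4.3.3. Libraries were scaled by TMM, low genes were dropped by filterByExpr, and the model held the 3 groups and nothing else. Benjamini-Hochberg adjustment ran over 17650 genes with a threshold of 0.05. The biological coefficient of variation was 60.0% over all genes. Intervals of 95% use the SE and the residual plus prior degrees of freedom. The test was checked on simulated counts of lower spread than these data, which cannot show how often it misses changes here. Alternatives used DESeq2 1.42.0, which was given all 55385 genes without filterByExpr, and limma 3.58.1. Derived values were compared by exact two-sided permutation tests. No 2 libraries agreed within sampling noise (lowest chi-square per degree of freedom 13.1). The tables count reads, not tagged molecules, so counting errors cover counting only.

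The genes, lists and library sets were chosen with earlier results of these data known. Named list genes are those called in a comparison and the 2 of largest absolute fold change per list and knockdown among genes of at least 5 CPM. Xrn1 in shDis3 was named beyond this rule, after its values were seen. An erythroid and a lymphoid marker of the original lists are not reported here and were left out of the sums.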

Additional observations from a re-analysis of the deposited data

Results flagged for a closer look

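Of 42 sets of 4 values checked (levels, transcript lengths and derived values of the 4 nucleases by group), 6 had a library whose gap to the others was larger than the 95% limit of Dixon's test for 4 values. Chance flags about 1 in 20 such sets. Dis3 reached 196.2 CPM in shExosc10 replicate 1, and Dis3l reached 31.3 CPM in shLuc replicate 4, each above the rest of its group. Dis3l2 was low in shDis3 replicate 2, at 17.3 CPM. The mean transcript length of Dis3l2 stood apart in shLuc replicate 2 (2825.5 bases) and in shDis3 replicate 2 (2669 bases). The log2 ratio of Dis3 to Exosc10 TPM was 0.49 in shLuc replicate 1, above the other control libraries.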

How the results depend on the processing

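Dis3 in shDis3 against shLuc kept its direction in all alternatives and passed the threshold with RLE normalisation (-1.81 on the log2 scale), with DESeq2 (-1.81), without the filter on low counts (-1.77), with the library sets as a factor (-1.997) and without the 4 libraries that stood apart (-2.10). Leaving out single libraries gave -1.97 to -1.62. Exosc10 in shExosc10 against shLuc missed the threshold with limma on log2(TPM + 1) (-1.69) and log2(TPM + 0.1) (-1.78), and single libraries left out gave -1.97 to -1.74.

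The number of genes called in shDis3 against shLuc, in shExosc10 against shLuc and in shDis3 against shExosc10 was 0, 1 and 2. It was 28, 6 and 49 with DESeq2, 123, 10 and 179 without the filter, 32, 4 and 24 with the library sets as a factor and 724, 7 and 466 without the 4 libraries. These counts are not of the same genes. The main fit and that with library sets held 17650 genes, and DESeq2 was given all 55385. The edgeR fit without the filter held 41382 genes and that without the 4 libraries 21703. Other fits with fewer libraries also held other numbers of genes. Without the 4 libraries, shDis3 kept only replicates 1 and 2. RLE normalisation gave 1 in the first comparison. Limma at either pseudocount gave 0 in the second and 0 in the third, and fitting 2 groups only gave 1 in the third. Leaving out single libraries gave 0 to 146 (146 without shLuc replicate 4), 0 to 2 (2 without shLuc replicate 4, 0 without shExosc10 replicate 2 or 3) and 1 to 2 (1 without shDis3 replicate 1 or 3 or shExosc10 replicate 3).

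The log2 ratio of Dis3 to Exosc10 was -2.01, 1.86 and -3.87 in the same order without the 4 libraries, where the fewer libraries cannot pass the threshold, and -1.79 to -1.54, 1.88 to 2.18 and -3.87 to -3.52 without single libraries, with adjusted p up to 0.0571. Reversed values were small. Dis3l2 in shDis3 against shLuc was -0.00043 with RLE, -0.076 without the 4 libraries and -0.022 to 0.11 without single libraries. Dis3l in shExosc10 against shLuc was 0.20 and 0.25 with limma at the larger and smaller pseudocount and -0.25 to 0.048 without single libraries. Dis3 in shExosc10 against shLuc was -0.053 to 0.24, and the difference in summed family TPM -1.04 to 15.3, without single libraries. The cause of these changes was not tested.

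A replicate block gave 0, 1 and 1 calls, and Dis3 in shDis3 against shExosc10 had an adjusted p of 0.0591 with it (edgeR). The labels do not say that the numbers pair libraries. In 8 of 24 checks a library was closest to its own number, where chance among 4 libraries gives about 1 in 4. After each gene's group mean was subtracted, libraries of the same number had r from -0.47 to 0.77.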
